A study of Homo sapiens with 8 samples.

Results

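This report describes the enzymes that attach glutathione, sulfate or acetyl groups to small molecules, and the aldehyde dehydrogenases, in an oesophageal adenocarcinoma cell line after knockdown of HNF4A. The members were taken by gene symbol. Those named GSTA, GSTK, GSTM, GSTO, GSTP, GSTT and GSTZ are called cytosolic glutathione S-transferases here, although GSTK1 belongs to mitochondria and peroxisomes. Others were microsomal glutathione S-transferases (MGST), cytosolic sulfotransferases (SULT), NAT1, NAT2 and NAT8, and aldehyde dehydrogenases (ALDH) whose symbol has a letter and closing number. This gave 52 of the 30755 symbols in the RNA-seq table, namely 16 cytosolic GST, 3 MGST, 12 SULT, 3 NAT and 18 ALDH genes. The symbol rule itself uses no expression value.

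Bulk RNA-seq was made from ESO26, an established cell line of an oesophageal adenocarcinoma, with 2 control libraries and 2 libraries after siRNA knockdown of HNF4A, a nuclear receptor of liver, gut and kidney epithelium. Cells of both groups were grown in RPMI medium with fetal bovine serum. What the control cells received, the time after transfection and the siRNA sequence are not given in the sources used here, and neither is whether libraries of a group came from separate cultures, so p-values measure only the spread between these libraries. The series' text speaks of triplicates, and 2 libraries a group were analysed here.

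Conjugating enzymes make foreign and internal compounds more soluble and easier to export. Glutathione S-transferases join the thiol of glutathione to electrophiles, sulfotransferases transfer sulfate from the donor PAPS, and N-acetyltransferases transfer acetyl from acetyl-CoA. Aldehyde dehydrogenases oxidise aldehydes to acids, among them retinal to retinoic acid, and some work in amino acid and folate metabolism. Many of these genes are highly expressed in liver and intestine, the tissues in which HNF4A is best known.

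Normalized counts summed to between 17912507 and 18613685 per library. The absolute depth is unknown; from the most frequent value of genes seen in 1 library only, the depth relative to control 1 was 1.10 in control 2, 1.37 in siHNF4A 1 and 1.21 in siHNF4A 2. The targeted gene HNF4A fell, with normalized counts of 4033 ± 136 in the controls (SD, n = 2) and of 1036 ± 147 after knockdown (SD, n = 2). Its fold change was -1.97 on the log2 scale (adjusted p = 1.59e-05 in limma). The 10 columnar epithelial markers found in the table, led by EPCAM, KRT19 and KRT8, summed to between 94795 and 102911 normalized counts per library; EPCAM, KRT8 and KRT18 were called lower and KRT19 and CDH17 higher. The squamous markers (4 of 5 symbols in the table) summed to at most 36.2, the fibroblast markers (4 of 5) to between 132 and 238, the immune markers (3 of 5) to between 43.9 and 82.0 and the hepatocyte markers (3 of 4) to between 67.8 and 85.7. The 2 endothelial markers in the table, VWF and CDH5, summed to 24.6 and 15.2 in the controls, against 64.0 and 47.2 in the knockdown, and VWF rose (log2 fold change 2.31, adjusted p = 0.00542 in limma). VWF averaged 7.62 in the controls and 42.0 in the knockdown, so it passed the filter at a mean of 10 only through the knockdown. CDH5 overlapped between the groups. The squamous keratin KRT14 rose from 0.637 and 2.29 to 12.2 and 25.7 (adjusted p = 0.0185 in limma). KRT14 averaged 1.46 in the controls, so it too passed the filter only through the knockdown. KRT5, of the same list, was lower in the knockdown, with 32.6 and 12.1 against 6.14 and 10.5. It was not called (adjusted p = 0.190 in limma). KRT13 and IVL were at most 1.05 and 0.929 in any library and were not tested. No marker in the table was at 0 in all 4 libraries. The part of these markers in the results was not tested. In bulk RNA, fewer cells of a kind and less RNA per cell cannot be told apart.

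The sequences before the start sites of 3 of the 4 genes that fell, and of a pair of gene copies whose values cannot be separated, are shown here so that they can be set beside the values that follow. They are the 250 bases before the RefSeq start site in GRCh38.p14, 5′ to 3′ on the strand of the gene, and capitals mark a match to TGACNNNGC, the core of the antioxidant response element that the factor NRF2 binds. GSTP1 lies at chr11:67583562-67583811 on the plus strand, MGST3 at chr1:165630984-165631233 on the plus strand and ALDH18A1 at chr10:95656712-95656961 on the minus strand. SULT1A3 lies at chr16:30199005-30199254 and SULT1A4 at chr16:29459663-29459912, both on the plus strand.
GSTP1: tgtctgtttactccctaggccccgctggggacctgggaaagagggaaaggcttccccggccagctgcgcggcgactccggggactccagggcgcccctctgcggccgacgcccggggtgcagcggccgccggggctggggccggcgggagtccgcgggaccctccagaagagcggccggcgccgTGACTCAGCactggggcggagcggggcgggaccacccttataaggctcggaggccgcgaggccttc
MGST3: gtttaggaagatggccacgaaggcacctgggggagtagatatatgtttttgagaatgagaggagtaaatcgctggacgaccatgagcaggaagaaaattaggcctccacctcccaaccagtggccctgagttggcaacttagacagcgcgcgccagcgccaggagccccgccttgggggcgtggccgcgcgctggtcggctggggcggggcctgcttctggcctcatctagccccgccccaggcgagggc
ALDH18A1: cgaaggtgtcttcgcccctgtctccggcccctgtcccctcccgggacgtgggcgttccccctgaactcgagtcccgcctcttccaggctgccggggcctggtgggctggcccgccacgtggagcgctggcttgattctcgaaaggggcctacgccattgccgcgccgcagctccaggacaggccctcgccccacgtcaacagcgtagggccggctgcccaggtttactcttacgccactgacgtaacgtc
SULT1A3: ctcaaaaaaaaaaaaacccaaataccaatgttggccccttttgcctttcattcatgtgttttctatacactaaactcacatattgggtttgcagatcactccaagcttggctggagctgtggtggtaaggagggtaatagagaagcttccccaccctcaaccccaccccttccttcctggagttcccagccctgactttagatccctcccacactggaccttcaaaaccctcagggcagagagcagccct
SULT1A4: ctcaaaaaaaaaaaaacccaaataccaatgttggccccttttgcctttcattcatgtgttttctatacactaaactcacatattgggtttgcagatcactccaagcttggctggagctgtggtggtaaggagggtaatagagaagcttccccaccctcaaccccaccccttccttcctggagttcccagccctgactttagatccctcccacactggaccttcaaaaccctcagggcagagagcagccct

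The GSTP1 stretch held 1 match, which began 66 bases before the start site, and the other 4 stretches held none. In windows of 300 bases (250 before to 50 after the start, both strands), the same letters were found in 13.3% of the 35116 RefSeq windows and in 7 of the 48 windows (14.6%) of the 40 members that had one (MGST2, which was tested, is not among these 40): GSTA4, GSTM1, GSTM5, GSTO1, GSTP1, MGST1 and SULT1C2. The HNF4 letters CAAAGTCCA were in 0.384% of all windows and in none of the 48, which says only that these letters are not in these windows. The windows of SULT1A3 and SULT1A4 were equal at 300 of 300 bases.

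**Figure D1:**
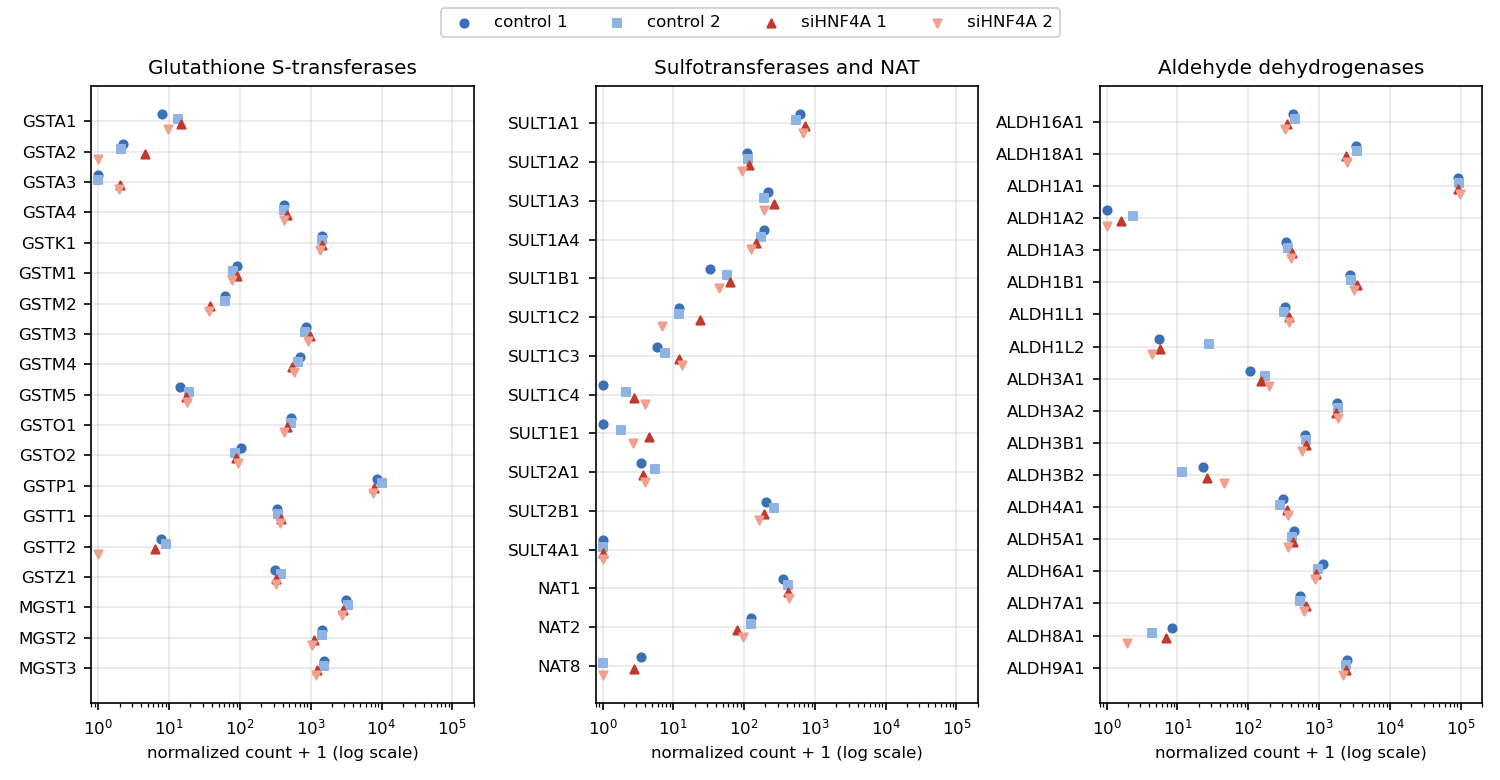
Normalized count + 1 (log scale, not per length) of all 52 genes in each of the 4 libraries, by enzyme class; points of a gene are shifted vertically only to keep them apart. Most genes have their 4 points close together, ALDH1A1 lies far above the rest, and GSTA2, GSTA3, SULT1C4, SULT1E1, SULT2A1, NAT8, ALDH1A2 and SULT4A1 lie at or near 0.

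Knockdown of HNF4A left most of these enzymes without a change that passed the test. The test was limma on log2(normalized count + 1), for genes that averaged 10 normalized counts or more, and a gene was called at a Benjamini-Hochberg adjusted p under 0.05 over all 15577 genes tested. Of the 52 members 40 were tested and 4 were called, GSTP1, MGST2, MGST3 and ALDH18A1, all lower in the knockdown. That is 10.0% of the tested members, against 14.1% of all genes tested. In the lower direction the 10.0% stand beside 8.11% of all genes, and in the higher direction 0 of 40 stand beside 6.02%; the alternative fits called at most 1 member higher. The shares of called members lie near or below the background. Of the 36 members not called, 12 had an unadjusted p under 0.05 (33.3%, against 17.2% of all tested genes that were not called). Of these 12, 9 were lower in the knockdown (25% of the 36, against 9.28%) and 3 higher (8.33%, against 7.93%), so that the lower share stood above that of other uncalled genes; this difference was not tested.

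The median log2 fold change of the 40 members was -0.04, against -0.0073 over all genes tested, with 19 values above 0 and 21 below. The groups did not overlap in 23 members (57.5%), against 57.0% of all genes. Without overlap, 14 of the 40 members were lower in the knockdown and 9 of the 40 higher, beside 30.1% and 26.9% of all genes. For 18 of the 36 members that were not called, the 95% interval of the log2 fold change lay within 0.5 of 0 in both directions. For the other 18 it reached further than 0.5 from 0, so that changes larger than that are not excluded for them.

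**Figure D2:**
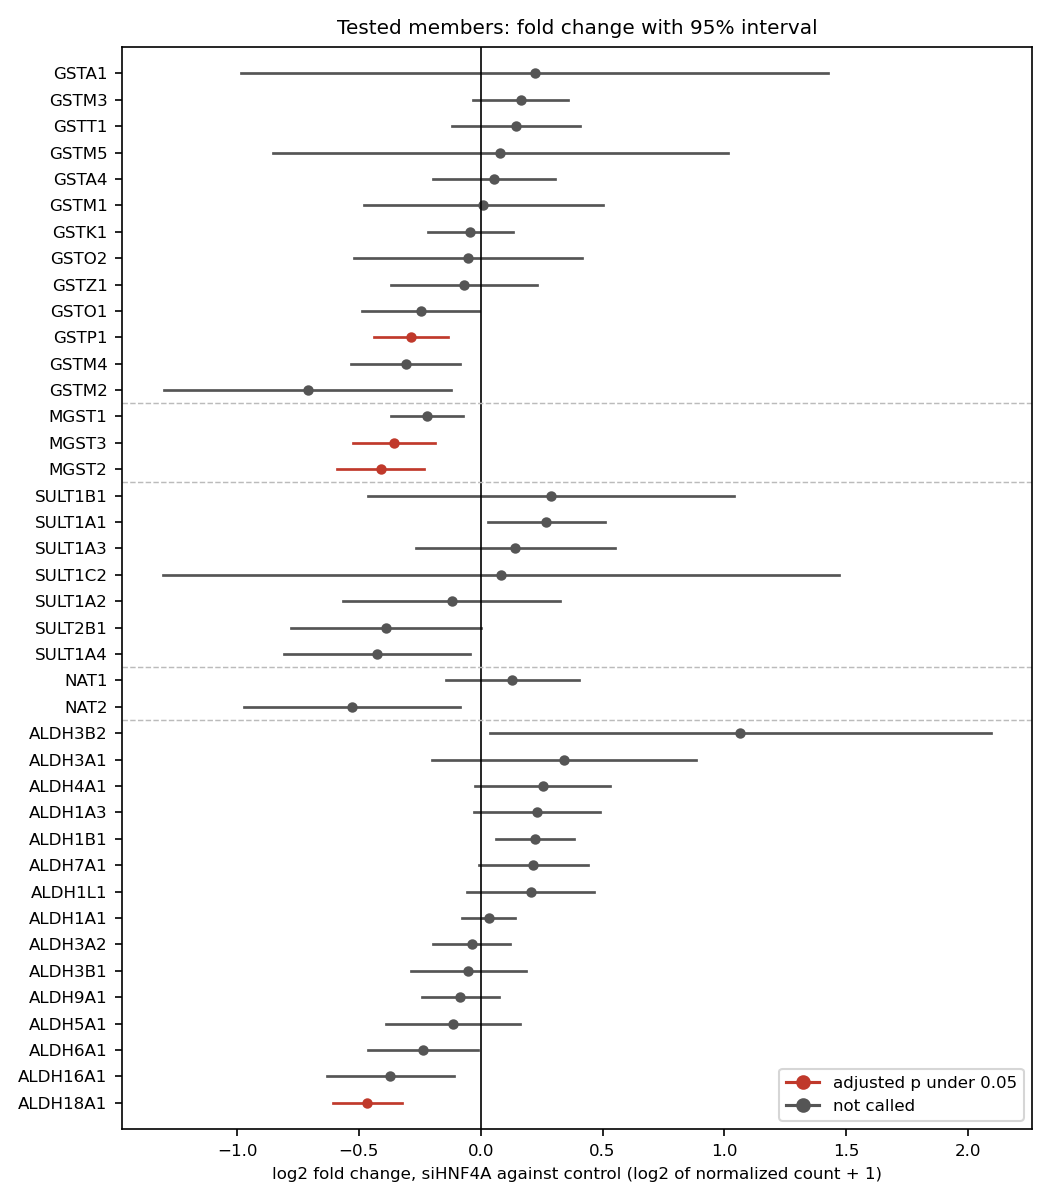
Log2 fold change (siHNF4A against control, on log2 of normalized count + 1) of the 40 tested members with 95% intervals from limma, grouped from top to bottom as cytosolic GST, microsomal GST, SULT, NAT and ALDH genes. The 4 called genes, in red, all lie below 0, and the widest intervals belong to genes of low value such as SULT1C2 and GSTA1.

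Of the 3 membrane-bound glutathione transferases, all tested, 2 fell (66.7%, against 14.1% of all genes), and the median log2 fold change was -0.36. These MAPEG-family proteins sit in intracellular membranes and act as glutathione transferases and peroxidases. MGST2, which can also make leukotriene C4, had 1453 and 1439 normalized counts in the controls, against 1124 and 1053 in the knockdown. MGST3, a glutathione-dependent peroxidase and transferase, had 1539 and 1553 in the controls, against 1212 and 1203 in the knockdown. In both genes the knockdown libraries lay well below both controls, and the libraries of a group differed little.

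The log2 fold change was -0.41 for MGST2 (SE 0.080, adjusted p = 0.00861 in limma) and -0.36 for MGST3 (SE 0.075, adjusted p = 0.0125 in limma), so that the knockdown held 75.2% and 78.1% of the control means. In RefSeq MGST2 overlaps MAML3 and 2 other genes, MGST1 overlaps LMO3 and 2 others, and MGST3 overlaps none; without known strand handling, reads of overlapping genes cannot be told apart. MGST1, the third gene and an abundant enzyme of the endoplasmic reticulum and mitochondrial outer membrane, had 3161 and 3381 in the controls, against 2817 and 2795 in the knockdown. Its groups did not overlap either, but its log2 fold change of -0.22 just missed the threshold (adjusted p = 0.0515 in limma). MGST1 passed with a pseudocount of 5 (adjusted p = 0.0494), a filter at a mean of 50 (0.0370), a robust fit (0.0437) and without control replicate 1 (0.0319), in each case in limma, and had an adjusted p of 0.208 without control replicate 2. With 1 library left out, 1 group is a single library whose spread is assumed to be that of the other group, here and in all fits of this kind, so these p-values can come out smaller as well as larger than with 4 libraries. MGST2 was not called without siHNF4A replicate 2 (adjusted p = 0.0637 in limma), and MGST3 was not called without siHNF4A replicate 1 (0.0586) or 2 (0.0679).

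Among the cytosolic glutathione transferases GSTP1, the pi-class enzyme that many epithelial tumours express strongly, was the one gene called of 13 tested (7.69%, against 14.1% of all genes). It had 8771 and 10049 normalized counts in the controls, against 7756 and 7620 in the knockdown. Control 2 stood above control 1 by more than the gap between control 1 and the knockdown. The log2 fold change was -0.29 (SE 0.068, adjusted p = 0.0207 in limma), and the knockdown held 81.7% of the control mean. The call was lost without control replicate 2 (log2 fold change -0.19, adjusted p = 0.0797 in limma), without siHNF4A replicate 1 (adjusted p = 0.0799) or 2 (0.109), and after quantile normalization (0.0577).

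The 5 mu-class genes are neighbours on chromosome 1 in the order GSTM4, GSTM2, GSTM1, GSTM5 and GSTM3, and none was called. GSTM2 had 60.7 and 59.9 normalized counts in the controls, against 37.1 and 35.8 in the knockdown, with no overlap of the groups. Its log2 fold change of -0.71, the lowest of the 40 tested members, had an SE of 0.26 (adjusted p = 0.106 in limma). GSTM4 had 709 and 671 in the controls against 534 and 581 (log2 fold change -0.31, adjusted p = 0.0717 in limma).

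Next to these, GSTM1, which is deleted in many people, lay between 76.5 and 91.3 with overlapping groups (log2 fold change 0.011). GSTM5 had 13.4 in the lowest and a mean of 16.1 over all libraries, also with overlapping groups. GSTM3, with 847 and 842 in the controls, against 973 and 919 in the knockdown, was on the other side (log2 fold change 0.16, adjusted p = 0.248 in limma). Reads of such similar genes can be assigned to one another. GSTM1, GSTM2, GSTM4 and GSTM5 summed to 872 and 827 in the controls, against 679 and 710 in the knockdown, a log2 fold change of -0.29 that was not called either (adjusted p = 0.064 in limma).

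No gene of the other classes counted as cytosolic was called. GSTK1, of mitochondria and peroxisomes, had 1439, 1420, 1445 and 1333 normalized counts in control 1, control 2, siHNF4A 1 and siHNF4A 2. GSTA4, which handles the lipid peroxidation product hydroxynonenal, had 424, 419, 459 and 419 in the same order. GSTZ1, the maleylacetoacetate isomerase of tyrosine breakdown, had 311, 376, 326 and 327. In these 3 genes the groups overlapped, and the log2 fold changes lay between -0.067 for GSTZ1 and 0.055 for GSTA4.

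GSTT1, of the theta class, had 332 and 340 in the controls, against 380 and 363 in the knockdown (log2 fold change 0.14, 95% interval -0.12 to 0.41). GSTO1, an omega-class enzyme with thioltransferase and dehydroascorbate reductase activity, had 525 and 517 against 455 and 423, with no overlap (log2 fold change -0.25, adjusted p = 0.161 in limma). GSTO2 lay between 85.0 and 102 with overlapping groups. GSTA1, a main alpha-class enzyme of liver and small intestine, lay between 6.88 and 13.9, just above the filter, and the interval of its fold change ran from -0.98 to 1.43. GSTA2 and GSTA3 were at most 3.61 and 1.05 normalized counts in any library and were not tested. GSTT2, also not tested, was listed at 6.68 and 8.08 in the controls, against 5.24 and 0 in the knockdown. RefSeq lists GSTT2 as a transcribed pseudogene that overlaps DDT. GSTT2B, a near-identical copy outside the symbol rule, was listed at 0 in both controls and at 2.71 and 5.06 in the knockdown. Their sum, 6.68 and 8.08 against 7.95 and 5.06, overlapped between the groups.

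**Figure D3:**
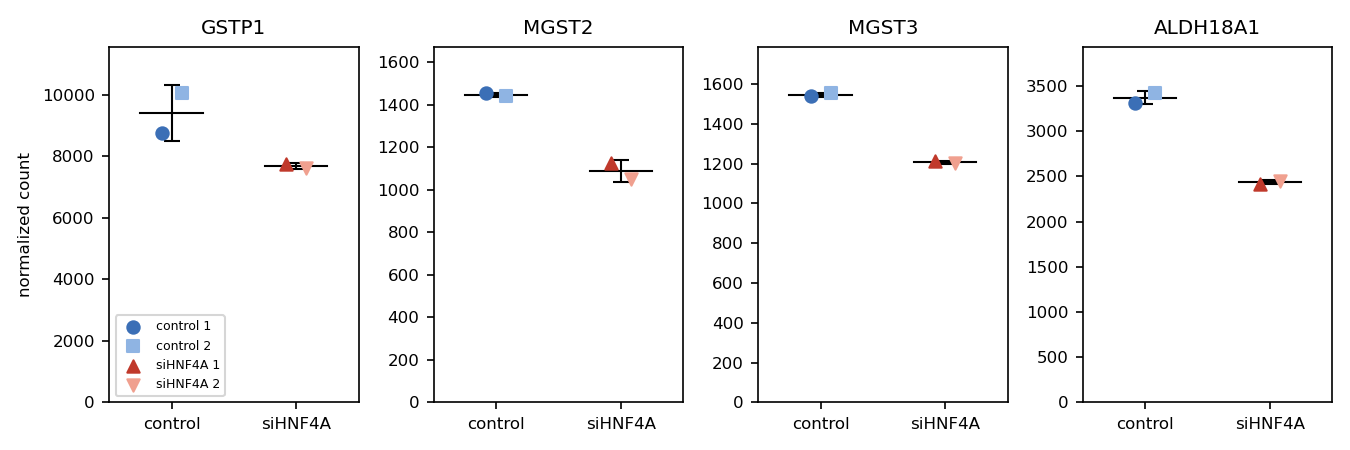
Normalized counts of GSTP1, MGST2, MGST3 and ALDH18A1 in each library (points), with the mean (horizontal line) and SD (bars, n = 2) of each group; each axis starts at 0. In all 4 genes both knockdown libraries lie below both controls, and only for GSTP1 is the spread of the controls wide.

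Of the 18 aldehyde dehydrogenases 15 were tested and 1 was called (6.67%, against 14.1% of all genes). ALDH18A1, the mitochondrial synthase that makes pyrroline-5-carboxylate from glutamate for proline and ornithine, fell from 3317 and 3419 normalized counts in the controls to 2421 and 2455 in the knockdown. Both pairs of replicates were tight and far apart from each other. The log2 fold change was -0.47 (SE 0.063, adjusted p = 0.00163 in limma), which leaves 72.4% of the control mean. With 1 library left out its log2 fold change lay between -0.49 and -0.44 and its adjusted p in limma between 0.000317 and 0.0136, where the spread comes from 1 group only.

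ALDH4A1, which oxidises pyrroline-5-carboxylate back to glutamate, had 308 and 284 in the controls, against 347 and 358 in the knockdown, with no overlap, and was not called (log2 fold change 0.25, adjusted p = 0.212 in limma). ALDH16A1, a long member of the family, had 422 and 456 against 348 and 330, also with no overlap and short of the threshold (log2 fold change -0.37, adjusted p = 0.0633 in limma).

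None of the retinal-oxidising genes was called. ALDH1A1, the cytosolic retinal dehydrogenase often used as a marker of stem-like tumour cells, had 90997 and 95209 normalized counts in the controls, against 91736 and 98932 in the knockdown. The groups overlapped and the 95% interval of the log2 fold change, -0.075 to 0.14, was the narrowest of the tested members. ALDH1A3, another retinal dehydrogenase, had 341 and 360 against 418 and 405 (log2 fold change 0.23, adjusted p = 0.218 in limma). ALDH1A2 was at most 1.34 in any library and was not tested.

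ALDH1B1, a mitochondrial enzyme of acetaldehyde and retinal found in intestinal epithelium, had 2739 and 2862 in the controls, against 3442 and 3105 in the knockdown. Its log2 fold change was 0.22 (adjusted p = 0.0677 in limma). It was called higher after quantile normalization (adjusted p = 0.0356) and with a filter at a mean of 50 (0.0487). ALDH1L1, the cytosolic formyltetrahydrofolate dehydrogenase, had 327 and 321 against 372 and 376, with no overlap (log2 fold change 0.20, adjusted p = 0.286 in limma). ALDH1L2, its mitochondrial counterpart, was listed at 4.47, 26.4, 4.70 and 3.31, with control 2 apart from the rest. Its mean of 9.73 was the highest below the filter, and the 10.5 of GSTA1 the lowest above it.

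In the ALDH3 group, ALDH3A2, the fatty aldehyde dehydrogenase, had 1819, 1843, 1748 and 1820 normalized counts in control 1, control 2, siHNF4A 1 and siHNF4A 2, with overlapping groups. ALDH3A1, of cornea and stomach, had 105, 171, 148 and 195, and the controls differed by more than the group means. ALDH3B1 lay between 573 and 662, with overlapping groups. ALDH3B2 had the highest log2 fold change of the 40 tested members, 1.07, from values of 22.0 and 10.4 against 24.7 and 43.7. It was not called (95% interval 0.038 to 2.09, adjusted p = 0.159 in limma), and its value turned on single libraries. Without control replicate 1, which leaves 10.4 as the only control value, the log2 fold change was 1.57 (adjusted p = 0.0286 in limma), while it was 0.56 without control replicate 2 (adjusted p = 0.474) and 0.67 without siHNF4A replicate 2 (adjusted p = 0.578).

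Of the other enzymes of amino acid and carnitine metabolism, none was called; ALDH18A1, described above, was. ALDH9A1, of carnitine synthesis, had 2446 and 2430 against 2399 and 2207. ALDH6A1, which acts in valine breakdown, had 1152 and 964 against 903 and 885 (log2 fold change -0.24, adjusted p = 0.153 in limma), and was called without control replicate 2 (log2 fold change -0.37, adjusted p = 0.0334 in limma) but stood at -0.11 without control replicate 1 (adjusted p = 0.580). ALDH7A1, of lysine breakdown, had 544 and 531 against 643 and 606 (log2 fold change 0.22, adjusted p = 0.186 in limma). ALDH5A1, the succinate semialdehyde dehydrogenase of GABA breakdown, lay between 363 and 437 with overlapping groups, and ALDH8A1 was at most 7.41 and was not tested.

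None of the 7 sulfotransferases tested was called; 14.1% of all genes were. SULT1A1, the phenol sulfotransferase, had 623 and 546 normalized counts in the controls, against 735 and 672 in the knockdown, with no overlap (log2 fold change 0.27, adjusted p = 0.133 in limma). SULT2B1, which sulfates cholesterol and steroids, had 205 and 264 against 193 and 163, also with no overlap (log2 fold change -0.39, adjusted p = 0.172 in limma). Its fold change ran from -0.57 without control replicate 1 to -0.21 without control replicate 2, and that of SULT1A1 from 0.36 to 0.17 in the same fits. SULT1B1, a thyroid hormone sulfotransferase of the gut, lay between 32.4 and 63.1, SULT1A2 between 92.6 and 114 and SULT1C2 between 5.85 and 23.0, each with overlapping groups. SULT1C3, SULT1C4, SULT1E1 (of oestrogen) and SULT2A1 (of bile acids and steroids) were at most 12.2 in any library and were not tested. SULT1C3 had 4.89 and 6.64 in the controls, against 10.9 and 12.2 in the knockdown. SULT1C4 and SULT1E1, at most 3.49 in any library, were also higher without overlap, while SULT2A1 overlapped between the groups. SULT4A1 was listed at 0 in all 4 libraries.

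The values of SULT1A3, the dopamine sulfotransferase, and of SULT1A4, its copy, cannot be taken singly. SULT1A3 had 214, 188, 261 and 187 normalized counts in control 1, control 2, siHNF4A 1 and siHNF4A 2, and SULT1A4 had 190, 173, 146 and 125. SULT1A4 alone had a log2 fold change of -0.43 (adjusted p = 0.132 in limma), and SULT1A3 one of 0.14. Together they had 404 and 361 in the controls, against 406 and 312 in the knockdown, with overlapping groups and a log2 fold change of -0.10 (95% interval -0.43 to 0.23). The stretches printed above for the 2 genes are the same. The row of the read-through transcript SLX1A-SULT1A3 held a further 416 and 188 in the controls, against 445 and 471 in the knockdown.

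**Figure D4:**
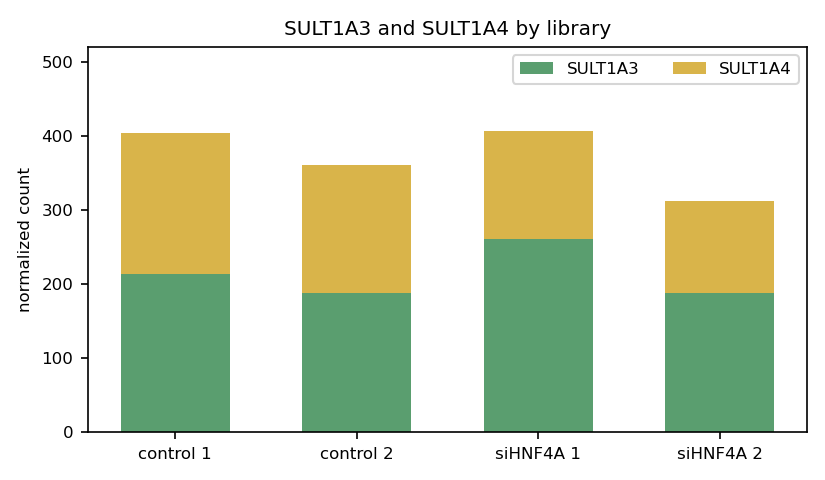
Normalized counts of SULT1A3 (lower part of each bar) and SULT1A4 (upper part) in the 4 libraries. SULT1A4 is smaller in both knockdown libraries, while the height of the whole bar, 404 and 361 in the controls, against 406 and 312 in the knockdown, overlaps between the groups.

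Of the arylamine N-acetyltransferases, NAT1 had 355 and 412 normalized counts in the controls, against 410 and 427 in the knockdown, with overlapping groups (log2 fold change 0.13, but 0.022 without control replicate 1 and 0.24 without control replicate 2). NAT2, the drug-acetylating enzyme of liver and intestine, had 126 and 125 in the controls, against 78.8 and 94.7 in the knockdown. Its groups did not overlap, and the log2 fold change of -0.53 (95% interval -0.97 to -0.086) was not called (adjusted p = 0.11 in limma). NAT8, which acetylates cysteine conjugates rather than arylamines in kidney and liver, was at most 2.45 and was not tested.

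Genes of the pathways around these enzymes were then read from 4 lists. Of 26 tested genes of glutathione synthesis, recycling and mercapturate formation, 5 were called (19.2%, against 14.1% of all genes). By direction, 4 were lower (15.4%, against 8.11% of all genes) and 1 higher (3.85%, against 6.02%). The 4 lower genes were GSR, glutathione reductase, GSS, glutathione synthetase, GGCT, which splits gamma-glutamyl dipeptides, and GLO1, which clears methylglyoxal with glutathione. GLO1 had 9610 and 9642 normalized counts in the controls, against 7440 and 7568 in the knockdown, and GSR had 3388 and 3805 against 2439 and 2734.

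Their log2 fold changes were -0.36 for GLO1 (adjusted p = 0.00206 in limma), -0.48 for GSR (adjusted p = 0.00499), -0.40 for GGCT (adjusted p = 0.00753) and -0.27 for GSS (adjusted p = 0.0389). The call of GSS was lost after quantile normalization (log2 fold change -0.23, adjusted p = 0.0707 in limma). CBS, which leads homocysteine towards cysteine, rose from 165 and 197 to 279 and 265 (log2 fold change 0.59, adjusted p = 0.0307 in limma). GCLC and GCLM, the subunits of the rate-limiting enzyme of glutathione synthesis, were not called (log2 fold changes -0.061 and -0.18). The median of the list was -0.13.

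Of 24 genes around NRF2, the factor that induces many conjugating enzymes under oxidative stress, 7 were called (29.2%, against 14.1% of all genes), 3 lower (12.5%, against 8.11%) and 4 higher (16.7%, against 6.02%). NQO1, a quinone reductase, had 9701 and 10466 normalized counts in the controls, against 7428 and 7708 in the knockdown (log2 fold change -0.41, adjusted p = 0.00187 in limma). SLC7A11, the cystine importer, and ABCC2, an exporter of conjugates, fell by 0.56 and 0.39 on the log2 scale. For SLC7A11 the log2 fold change was -0.32 and not called without siHNF4A replicate 1 (adjusted p = 0.0811 in limma), and the robust fit did not call it either (adjusted p = 0.0525). In the other direction AKR1C2, a ketosteroid reductase, had 747 and 855 against 1251 and 1372 (log2 fold change 0.71, adjusted p = 0.00163 in limma), and AKR1C1, ME1 and FTH1 rose by 0.43, 0.46 and 0.35. AKR1C1 and AKR1C2 are near-identical, so their single values are uncertain. Among the called genes of the 4 lists, ABCC2, AKR1C1, AKR1C2, DHRS3, FTH1, GSS, NQO1, RDH13 and SLC7A11 overlap other RefSeq genes, and the limit on overlapping genes holds for them too. SQRDL, also called, was not found in RefSeq under that symbol, so its overlaps were not read. NFE2L2, which encodes NRF2, was not called (log2 fold change -0.090), and the median of the list was -0.065.

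The sulfate list held genes of sulfate activation, uptake and removal and also genes of sulfide oxidation. Of its 21 tested genes 4 were called (19.0%, against 14.1% of all genes). By direction, 3 were lower (14.3%, against 8.11% of all genes) and 1 higher (4.76%, against 6.02%). Among the 4 called, 2, ETHE1 and SQRDL, act on sulfide and persulfide. ETHE1, a mitochondrial persulfide dioxygenase, had 113 and 135 normalized counts against 53.1 and 67.9 (log2 fold change -1.03, adjusted p = 0.0158 in limma). SLC26A3, an intestinal anion exchanger, and ARSB, a lysosomal sulfatase, fell by 1.07 and 0.74, and SQRDL, the sulfide oxidase, rose by 0.31. PAPSS1 and PAPSS2, which make PAPS, were not called (log2 fold changes 0.088 and -0.10). Of 18 tested genes of retinoid and alcohol steps 2 were called (11.1%, against the same 14.1%): RDH13, a mitochondrial retinal reductase, fell by 0.56 and DHRS3, which reduces retinal to retinol, rose from 563 and 572 to 747 and 699 (log2 fold change 0.35, adjusted p = 0.0401 in limma). The medians of these lists were -0.099 and -0.036.

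Across the 4 lists, which were drawn up with earlier results of these data known, 86 genes were tested and 18 called (20.9%, against 14.1% of all genes), when each gene is counted once. Of the 86, 12.8% were called lower and 8.14% higher, beside 8.11% and 6.02% of all genes. Of these 18, 13 remained called without control replicate 1, 14 without control replicate 2, 9 without siHNF4A replicate 1 and 6 without siHNF4A replicate 2 (AKR1C2, ETHE1, GLO1, GSR, NQO1 and SLC7A11). ARSB, CBS, DHRS3, SLC26A3 and SQRDL were lost without control replicate 1, and ABCC2, DHRS3, ETHE1 and GSS without control replicate 2. The genes kept without siHNF4A replicate 1 were AKR1C1, AKR1C2, FTH1, GGCT, GLO1, GSR, GSS, ME1 and NQO1. Of the 4 called members, GSTP1 was lost without control replicate 2, GSTP1 and MGST3 were lost without siHNF4A replicate 1, and all but ALDH18A1 were lost without siHNF4A replicate 2.

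**Figure D5:**
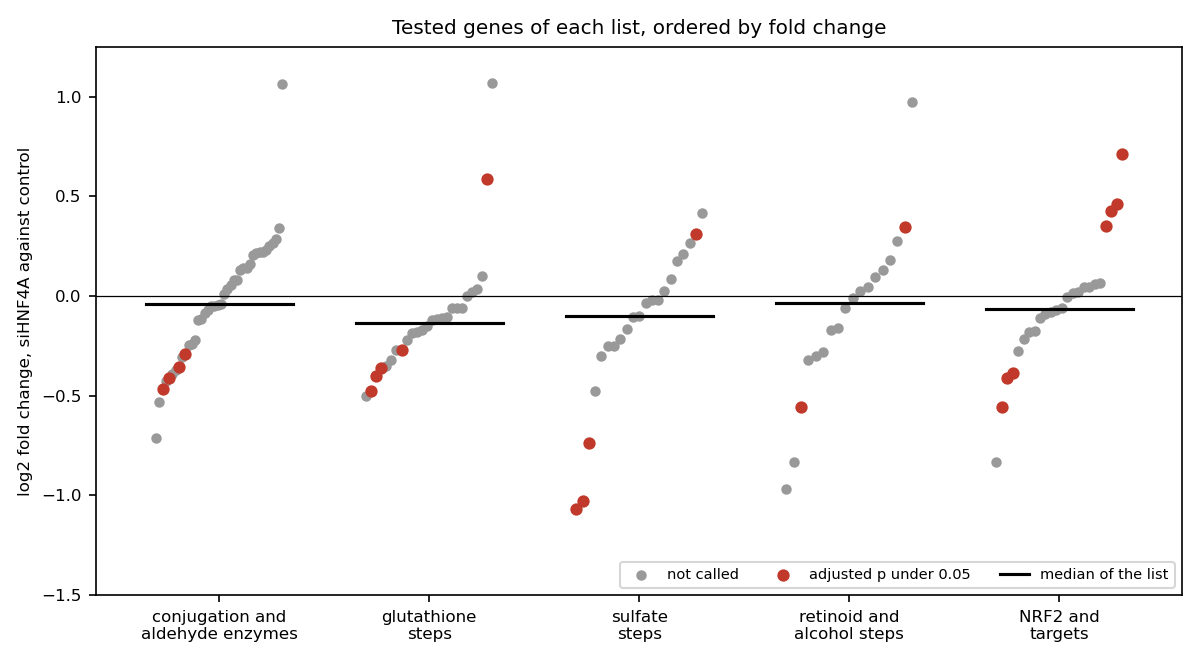
Log2 fold change (siHNF4A against control) of the tested genes of each group, ordered from low to high within the group, with called genes in red and the median as a line. The 40 conjugation and aldehyde enzymes have their 4 called genes below 0, while called genes of each of the 4 pathway lists lie on both sides of 0.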

How the data were processed

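The RNA-seq table holds a normalized count (a signal value) per gene symbol and library, which the authors deposited after normalization. Trim Galore, Bowtie, Bowtie2, Picard, MACS2 and the build hg19 are named in the submitters' processing notes with no role. The RNA-seq aligner, counting, strand handling, annotation and normalization are not given in the sources used here, and values are not per length. Of the members, 22 overlap another gene in RefSeq GRCh38.p14.

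Libraries were grouped by title. Limma 3.58.1 in R 4.3.3 (lmFit, eBayes with trend, no block) was run on log2(normalized count + 1) for genes with a mean of at least 10; fold changes are on that scale and understate low genes. With 2 libraries a group, the smallest two-sided p of an exact permutation test on 1 gene is 0.333. In 5 simulated tables of 15577 genes, 71.2% of 200 genes changed by 1 (log2) were called. The called members changed by less than 1 on that scale, and smaller changes were not simulated.

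The rule named all members by family, with library values for called members and the member of highest mean per family, and HNF4A and called list genes (at most 8 a list). Library values of other members, and the uncalled list genes GCLC, GCLM, NFE2L2, PAPSS1 and PAPSS2, were added after their values were seen. Members and lists were chosen with earlier results of these data known. Peak lists and 4C libraries were not used, since no annotation of the build was at hand to place peaks at genes.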

Additional observations from a re-analysis of the deposited data

How the results depend on the processing

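The log2 fold change of HNF4A (-1.97) lay between -1.97 and -1.92 with all 4 libraries and between -2.11 and -1.82 with 1 left out; without the variance trend it stayed at -1.97 and was not called (adjusted p = 0.0919 in limma). In that fit 0 genes, 0 members and 0 list genes were called, with 3524 genes at an unadjusted p under 0.05. With no filter 726 genes (of 2202), 2 members (of 4; ALDH18A1 and MGST2) and 3 list genes (of 18) were called; that fit adjusts over all symbols above 0 in any library in place of 15577. With 1 library left out, between 1013 and 2449 genes, 1 and 6 members, and 7 and 24 list genes were called. The pseudocounts, the filter at 50, both rescalings, the robust fit and the paralog sums gave between 4 and 6 members and between 18 and 22 list genes, though of the 18 called quantile normalization kept 17 (without GSS) and the robust fit 17 (without SLC7A11). The sum of SULT1A3 and SULT1A4 was chosen after seeing the data.

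The replicate block gave 2428 genes, 4 members, which were the same 4, and 22 list genes. Deviations from the group means were not shared between libraries of equal number (Pearson's r -0.019 over 15577 genes, 0.056 over the 10918 that averaged 100 or more), so the number was not taken to pair them.

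Quantile normalization reversed 5 members, none called in either fit: ALDH3A2 (0.0077), GSTK1 (0.0078), GSTM1 (-0.072), GSTM5 (-0.065) and SULT1C2 (-0.12). With 1 library left out, 14 members that were not called changed sign in at least 1 fit: ALDH1A1 (-0.021 to 0.088), ALDH3A1 (-0.0055 to 0.69), ALDH3B1 (-0.15 to 0.053), GSTA1 (-0.16 to 0.61), GSTA4 (-0.011 to 0.12), GSTK1 (-0.10 to 0.016), GSTM1 (-0.12 to 0.14), GSTM5 (-0.12 to 0.28), GSTO2 (-0.18 to 0.078), GSTZ1 (-0.20 to 0.070), SULT1A2 (-0.27 to 0.031), SULT1A3 (-0.095 to 0.38), SULT1B1 (-0.096 to 0.67) and SULT1C2 (-0.82 to 0.99). Another 8 uncalled members kept their sign but moved by over 1.5 times: ALDH3A2 (-0.067 to -0.0086), ALDH3B2 (0.56 to 1.57), ALDH5A1 (-0.23 to -0.0022), ALDH6A1 (-0.37 to -0.11), ALDH9A1 (-0.14 to -0.023), NAT1 (0.022 to 0.24), SULT1A1 (0.17 to 0.36) and SULT2B1 (-0.57 to -0.21). The cause was not tested. The tested members of lowest mean, from GSTA1 (10.5 normalized counts) to GSTO2 (91.6), had intervals that reached beyond 0.5, so changes larger than that are not excluded in them.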

Other observations

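Sulfate is also placed on the sugar chains of proteoglycans, by Golgi sulfotransferases that are not members of the SULT family. This group was chosen after its values were seen, as all CHST, HS2ST, HS3ST, HS6ST, NDST and UST symbols in the table. Of its 24 symbols 13 were tested, and 3 were called (23.1%, against 14.1% of all genes tested). By direction, 7.69% of the 13 were called lower and 15.4% higher, against 8.11% and 6.02% of all genes. CHST14, which sulfates dermatan chains, had 194 and 213 normalized counts in the controls, against 418 and 393 in the knockdown, a log2 fold change of 0.99 (SE 0.13, adjusted p = 0.00146 in limma). HS2ST1, of heparan sulfate, had 1367 and 1312 against 1988 and 2021, a log2 fold change of 0.58 (SE 0.073, adjusted p = 0.00107 in limma). CHST12, of chondroitin sulfate, fell from 142 and 124 to 74.3 and 83.7 (log2 fold change -0.74, adjusted p = 0.0356 in limma).

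Related genes outside the symbol rule were also read, chosen after their values were seen. ALDH2, the mitochondrial acetaldehyde dehydrogenase, had 3490 and 3524 normalized counts in the controls, against 3214 and 2944 in the knockdown and was not called (log2 fold change -0.19, adjusted p = 0.0931 in limma). NAT10, an RNA acetyltransferase that shares only the name stem with NAT1 and NAT2, had 3409 and 3496 against 2818 and 2667 (log2 fold change -0.33, adjusted p = 0.00879 in limma). NAT9, another gene of that name stem, had 522 and 521 against 577 and 555, with no overlap, and was not called (log2 fold change 0.12, adjusted p = 0.492 in limma). GSTCD, a gene with a transferase-like domain, had 1051 and 1044 against 843 and 817 (log2 fold change -0.34, adjusted p = 0.0269 in limma).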
